A study of Mus musculus with 4 samples.

Results

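The genotype contrast on high fat-high sucrose (HFHS) chow was measured in epididymal fat, with 1 array from *Mir342* (-/-) mice and 1 array from *Mir342* (+/+) mice. These were 2 of the 4 arrays of the study, and the other 2 held the same genotypes fed with standard (STD) chow. Total RNA was read with the GeneChip Mouse Gene 2.0 array, whose short probes along the exons are combined into 1 value per transcript cluster. All values are log2 levels as deposited, so a difference of 1 is a 2-fold change. A gene was read from transcript clusters that carried its symbol alone, and where several did, the brightest was used. Levels above 5.06, the 95th percentile of 1443 olfactory, vomeronasal and taste receptor clusters, were treated as above the floor. Of 22180 named genes, 12963 had a 4-array mean above it and were compared.

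All 4 groups were male mice labelled C57BL/6J, fed with their chow from 5 weeks of age, and the fat was taken at 16 weeks of age. The *Mir342* (-/-) mice carried a germline, whole-body deletion made in 1 embryonic stem cell line, in which a drug selection cassette took the place of the microRNA. The (+/+) mice carried both intact alleles. No other allele or agent was given for any group. The methods name several animals per group and do not say whether they were pooled, so each group is 1 array here, and a difference between 2 arrays carries no error and no p value. Every difference below is *Mir342* (-/-) minus *Mir342* (+/+), and is a description of these arrays.

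*Mir342* lies in an intron of *Evl*, which codes for an actin-binding protein of the ENA/VASP family. A mature microRNA guides the silencing complex to messenger RNAs, mostly through pairing of its seed, bases 2 to 8, with sites in their 3′ untranslated regions, and paired messages are translated less and degraded more. Epididymal fat holds lipid-filled adipocytes together with macrophages, fibroblasts and endothelium, and in obesity it is known to gain macrophages and collagen. Both mature products are shown because they are what the deletion removes. In the GRCm38.p6 assembly the hairpin runs from position 108658620 to 108658718 on chromosome 12, plus strand, within *Evl* (108554681 to 108688516). The RefSeq sequences are written 5′ to 3′ with the seed in capitals, and miR-342-3p spans chr12:108658680-108658702 and miR-342-5p chr12:108658638-108658659.
miR-342-3p: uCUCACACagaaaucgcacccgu
miR-342-5p: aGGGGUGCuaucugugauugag
The seeds of the 2 arms differed from each other, and each was carried by 1 of the 1738 mature mouse microRNAs of the RefSeq table.

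The cluster for *Mir342* itself read 4.46 on the HFHS (-/-) array, 5.52 on the HFHS (+/+) array, 4.62 on the STD (-/-) array and 5.43 on the STD (+/+) array. Both (+/+) arrays were above the floor and both (-/-) arrays were under it, as the labels give the genotypes. With the floor in place of the (-/-) value, the HFHS difference was at least 1.37-fold. With a 4-array mean under the floor, this cluster was not among the genes compared. The host gene *Evl* read 7.46 and 7.65 on the HFHS (-/-) and (+/+) arrays and 6.95 and 7.55 on the STD arrays in the same order. Its HFHS difference was -0.19, and on STD chow it was -0.61. In the list of the ENA/VASP family and its actin partners, *Evl* included, all 11 genes were above the floor, 8 were lower on HFHS chow, none by 1.5-fold, and the median was -0.09.

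Markers of adipocytes were among the brightest genes on both HFHS arrays. *Fabp4*, a fatty acid carrier, read 12.45 and 12.52, *Cidec*, a lipid droplet protein, 12.16 and 12.13, and *Adipoq*, which codes for adiponectin, 10.57 and 10.45 on the (-/-) and (+/+) arrays. The labelled tissue therefore showed its defining markers on each. Of 18 markers of duct and epididymal epithelium, 8 had a mean above the floor. *Epcam* read 3.76 and 3.48 on the HFHS (-/-) and (+/+) arrays, 3.72 on the STD (-/-) array and 5.37 on the STD (+/+) array. *Plet1*, an epithelial surface protein, read 6.06 and 6.69 on the HFHS arrays, 1.54-fold lower in *Mir342* (-/-), and 6.40 and 9.32 on the STD arrays. *Epcam* and *Plet1* were thus highest on the STD (+/+) array, and some markers were above the floor on the HFHS arrays too. On STD chow 7 of the 8 were lower in *Mir342* (-/-). The HFHS (-/-) array was the highest of the 4 in 2 of the 8, and the HFHS (+/+) array in 1. *Krt7*, an epithelial keratin, read 6.08 and 5.79 on the HFHS (-/-) and (+/+) arrays and 5.77 and 5.48 on the STD arrays. In whole tissue, fewer cells of a type and less RNA per cell cannot be told apart.

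The 2 HFHS arrays were closer to each other than any other pair of the 4 arrays, with a median absolute difference of 0.11 against 0.16 to 0.20. At least 1.5-fold lower in *Mir342* (-/-) were 110 genes (0.849% of 12963), and 58 genes were at least 1.5-fold higher (0.447%). At least 2-fold lower were 19 genes (0.147%), and 11 were at least 2-fold higher (0.0849%). These counts use the values as read, and with values under the floor placed at the floor 105 genes were at least 1.5-fold lower and 49 higher, and 19 at least 2-fold lower and 9 higher. On STD chow the same comparison gave 512 genes at least 1.5-fold lower (3.95%) and 232 higher (1.79%). Of all genes compared on HFHS chow, 7314 were lower to any degree (56.4%) and 5618 were higher (43.3%), with a median difference of -0.03 and 95% of genes between -0.44 and 0.37. The median difference changed with level, from 0.05 in genes under the floor and 0.02 between the floor and 6 to -0.06 between 7 and 8. Dim genes thus tended to read higher, and brighter genes lower, in *Mir342* (-/-).

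The array that departed from the other 3 was more often that of the *Mir342* (+/+) mice. An array was taken to stand apart for a gene when its value lay outside the range of the other 3 by at least 1.5-fold. The HFHS (+/+) array stood above the others for 58 genes (0.447%) and below them for 14 (0.108%). The HFHS (-/-) array stood above them for 13 genes (0.1%) and below them for 8 (0.0617%). Among the 110 lower genes, the (+/+) array stood apart in 58, the (-/-) array in 8 and neither in 44. Among the 58 higher genes, the (+/+) array stood apart in 14, the (-/-) array in 13 and neither in 31. The counts of an array standing apart repeat those over all genes and are no second result. An HFHS array at least 1.5-fold outside the other 3 is also at least 1.5-fold from the other HFHS array. At 2-fold the directions differed, since the (+/+) array stood apart in 15 of 19 lower genes and the (-/-) array in 9 of 11 higher genes. The STD (+/+) array, outside this contrast, departed most of all 4, with 216 genes above and 99 below.

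**Figure D1:**
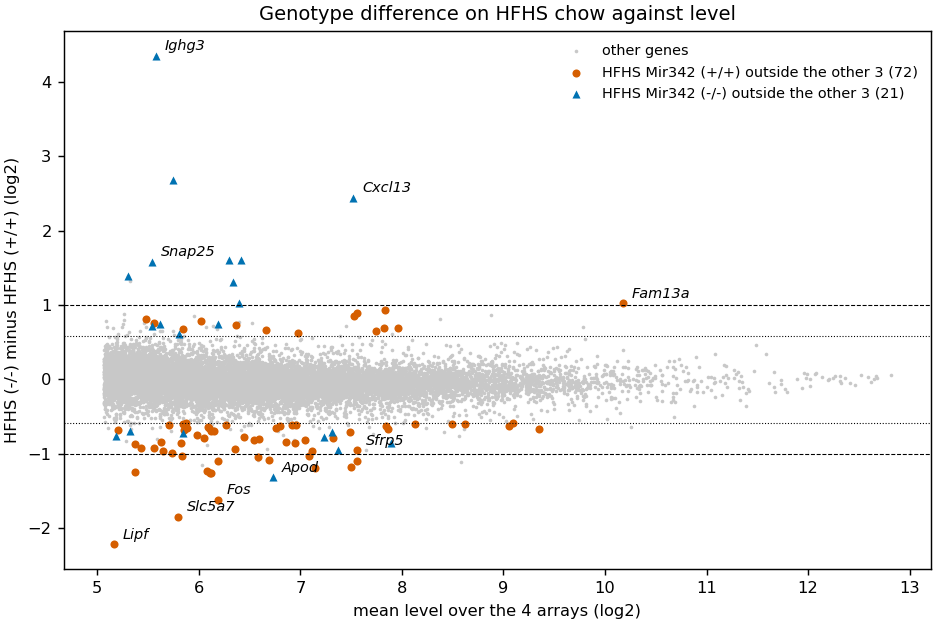
Difference between the HFHS arrays, *Mir342* (-/-) minus *Mir342* (+/+) in log2 (y axis), against the mean level over the 4 arrays in log2 (x axis), 1 point per gene for 12963 genes; dotted lines mark 1.5-fold and dashed lines 2-fold. Circles are the 72 genes for which the (+/+) array lay at least 1.5-fold outside the other 3, triangles the 21 for which the (-/-) array did; most circles lie below 0, while the highest points are triangles.

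Genes of the extracellular matrix, taken from 8 lists together, leaned to the lower side. Single lists leaned as far, with 23 of 26 fibroblast, 21 of 23 lipid-associated macrophage and 18 of 20 endothelial genes lower. Fibroblasts secrete fibrillar collagens as procollagens, enzymes trim and crosslink them into fibres, basement membrane collagens wrap adipocytes and vessels, and proteases remodel both. Of 131 matrix genes on the array in 8 lists, 113 were above the floor and 92 of these were lower in *Mir342* (-/-), 81.4% beside 56.4% of all genes. Their median difference was -0.21, 13 were at least 1.5-fold lower and 2 at least 1.5-fold higher (0.849% and 0.447% of all genes). The median level of these matrix genes was 7.55. Between levels 7 and 8, 34.4% of all genes were higher, beside 21 of the 113 matrix genes. The HFHS (+/+) array was the highest of the 4 in 69 of the 113 (61.1%), against 4048 of all genes (31.2%). The (-/-) array was the lowest of the 4 in 28 of them, 24.8% beside 2302 of all genes (17.8%). On STD chow the median of the same genes was 0.06, with 44 lower and 69 higher.

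Among fibrillar collagens, which form the tensile fibres, 8 of 9 genes above the floor were lower, with a median of -0.25. *Col3a1*, the collagen III chain, read 9.33 on the HFHS (-/-) array and 9.86 on the (+/+) array, with 9.18 and 8.80 on the STD (-/-) and (+/+) arrays. *Col1a1*, a collagen I chain, read 8.98 and 9.48 on HFHS chow and 8.89 and 8.62 on STD chow in the same order. For both genes the HFHS (+/+) array was the highest, and the HFHS (-/-) array lay 0.15 and 0.10 above the STD (-/-) array. No fibrillar collagen reached 1.5-fold, and *Col11a2* was the member that read higher, by 0.23. All 9 were higher in *Mir342* (-/-) on STD chow.

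The beaded and fibril-associated collagens varied more among themselves, from -0.84 to 0.01. They include collagen VI, which forms beaded filaments around adipocytes and in which *Col6a2* differed by -0.36. *Col6a1* read 9.22 and 9.81 on the HFHS (-/-) and (+/+) arrays and 8.71 and 8.63 on the STD arrays, a difference of -0.59. *Col14a1*, which sits on the surface of collagen I fibrils, read 7.09 and 7.94 on HFHS chow and 6.42 and 6.00 on STD chow, 1.79-fold lower. In both the HFHS (+/+) array stood highest, the HFHS (-/-) array came next, and both STD arrays were below. In this list 11 of 12 genes were lower, 2 at least 1.5-fold, with a median of -0.27. Among basement membrane collagens 9 of 11 were lower, with a median of -0.21. *Col4a2*, which pairs with *Col4a1* in the sheet under endothelium and adipocytes, read 8.06 and 8.71 against 7.96 and 8.23 on STD chow, so that the HFHS (-/-) array lay between the STD arrays.

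Proteins that bind, mature or decorate the fibres followed the same direction with exceptions. *Lum*, lumican, which spaces collagen fibrils, read 6.87 on the HFHS (-/-) array and 7.83 on the (+/+) array, and 6.85 and 6.92 on the STD arrays, so 3 arrays lay together and the (+/+) array stood 0.91 above them. *Mfap4*, a microfibril-associated glycoprotein, read 6.11 and 7.35 on HFHS chow and 5.50 and 5.36 on STD chow, 2.35-fold lower. *Lox*, which crosslinks collagen and elastin, read 8.24 and 9.0 on HFHS chow against 8.55 and 8.45 on STD chow, and here the HFHS (-/-) array was the lowest of the 4. *Pcolce2*, an enhancer of procollagen processing, differed by -0.67. Higher instead were *Fmod*, by 0.40, *Podn*, by 0.32, and *Fbln1*, by 0.40. The list medians were -0.19 for collagen-binding proteoglycans, -0.19 for maturation enzymes and -0.22 for elastic fibre and glycoprotein matrix.

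Matrix turnover and signalling genes held some of the largest values. *Mrc2*, the endocytic receptor that takes up collagen fragments, read 5.92 and 7.18 on the HFHS (-/-) and (+/+) arrays and 5.92 and 5.46 on STD chow, 2.40-fold lower. *Ccn5*, a matricellular protein of fibroblasts and preadipocytes, read 7.44 and 8.54, with 7.12 on both STD arrays. Each of these set the HFHS (+/+) array apart. *Mmp2*, a gelatinase, read 8.10 and 8.82 on HFHS chow and 8.21 and 8.51 on STD chow, and *Ctsk*, a collagen-degrading cysteine protease, differed by -0.88. *Smad7*, an intracellular inhibitor of TGF-β signalling, read 6.22 and 7.30 on HFHS chow and 6.02 and 6.79 on STD chow, lower by 1.08 and 0.78 in *Mir342* (-/-), so neither HFHS array stood apart. Against the direction, *Thbs2*, a matricellular inhibitor of vessel growth, read 8.56 and 7.75 on HFHS chow and 9.06 and 8.11 on STD chow, higher in *Mir342* (-/-) on both diets. *Mmp9*, a gelatinase of myeloid cells, read 5.77 and 5.02 on HFHS chow, with 5.70 and 5.74 on STD chow, so here the HFHS (+/+) array was low, and since it lay under the floor the difference was at least 1.63-fold.

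**Figure D2:**
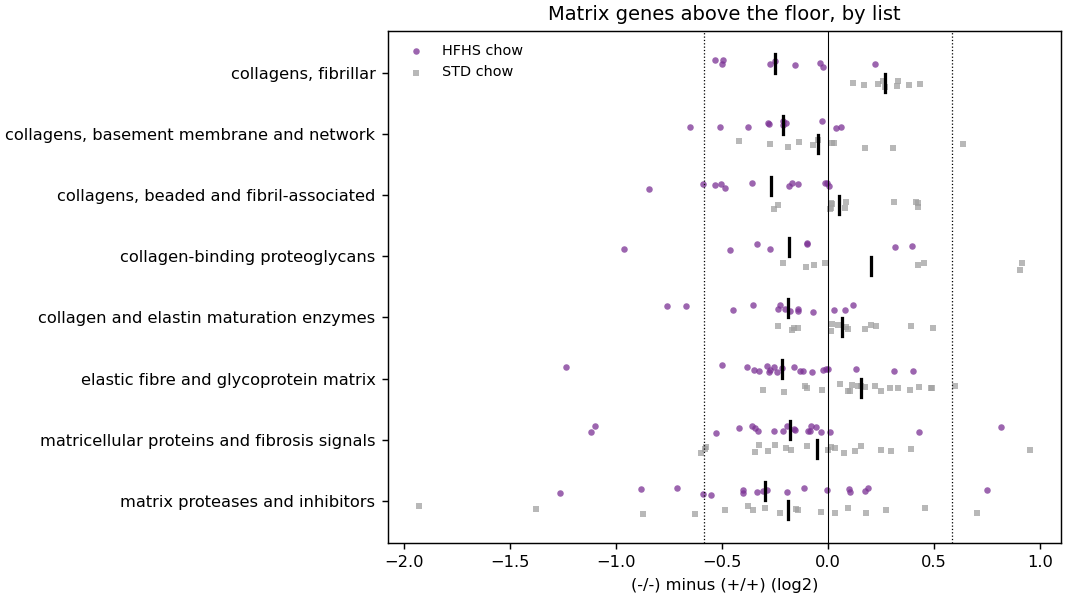
*Mir342* (-/-) minus *Mir342* (+/+) in log2 (x axis) for each matrix gene above the floor, by list (y axis), on HFHS chow (circles) and STD chow (squares); thick bars are list medians and dotted lines mark 1.5-fold. The HFHS medians of the 8 lists lie between -0.30 and -0.18, and 5 of the STD medians lie above 0.

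Markers of fibroblasts and preadipocytes were lower together with the matrix. Of 27 on the array, 26 were above the floor and 23 of these were lower, with a median of -0.27. Of all genes compared, 56.4% were lower, with a median of -0.03. The summed level of the fibroblast list (log2 of the summed linear signal) was 13.19 on the HFHS (-/-) array and 13.43 on the (+/+) array. It was 13.06 on the STD (-/-) array and 13.03 on the STD (+/+) array. The pan-fibroblast genes *Pdgfra* and *Dcn* differed by -0.12 and -0.10. The list shares *Col14a1*, *Mfap5* and *Fn1* with the matrix lists. The part of fibroblast number in the matrix difference was not tested. *Apod*, a lipocalin that carries small lipids, read 5.76 on the HFHS (-/-) array, 7.07 on the (+/+) array, and 6.67 and 7.41 on the STD (-/-) and (+/+) arrays. It was the 2-fold lower gene for which the (-/-) array stood apart, below the other 3.

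Immediate early genes are transcribed within minutes of a stimulus and encode transcription factors and their feedback inhibitors. Of 43 above the floor, 31 were lower in *Mir342* (-/-), 72.1% beside 56.4% of all genes, with a median of -0.14. At least 1.5-fold lower were 6 and higher 1, beside 0.849% and 0.447% of all genes. The HFHS (+/+) array was the highest of the 4 in 13 of the 43, 30.2% beside 31.2% of all genes. *Fos*, an AP-1 subunit, read 5.75 on the HFHS (-/-) array, 7.37 on the (+/+) array, and 5.90 and 5.73 on the STD (-/-) and (+/+) arrays. The other 3 arrays lay within 0.16 of each other, and the HFHS (+/+) array was 3.07-fold above the (-/-) array. *Fosb*, its paralogue, read 5.29 and 6.10 on HFHS chow and 5.70 and 5.25 on STD chow.

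Other members did not share that pattern. *Egr1*, a zinc finger factor of the same response, read 5.51 and 6.66 on HFHS chow and 5.66 and 6.27 on STD chow, and *Ccn1*, a secreted matricellular protein induced by stretch and growth factors, read 8.01 and 9.13 on HFHS chow and 8.43 and 8.75 on STD chow. In both genes the (-/-) array was the lower on each diet. *Gadd45g*, a growth arrest gene, read 6.98 and 7.83 against 8.12 and 8.64 on STD chow, and here the HFHS (-/-) array stood below the other 3. *Rgs2*, a brake on G protein signalling, read 7.09 and 6.44 on HFHS chow and 8.41 and 9.06 on STD chow, the 1 member at least 1.5-fold higher. Over the 43 genes the STD median was -0.29, beside -0.06 for all genes compared, and 36 of them were lower there. The STD (+/+) array was the highest of the 4 in 23 of the 43, 53.5% beside 33.5% of all genes.

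Promoter stretches of the lower immediate early genes are shown because these genes were lower together. The window of the 250 bases before the transcription start (RefSeq, GRCm38.p6) was searched on both strands for the CRE half-site TGACG, the AP-1 site TGACTCA and the full CRE TGACGTCA, which contains the half-site, and for the CArG box. Promoters were at hand for 5 of the 6 lower genes, and the half-site was found in 3 of them, *Fos*, *Fosb* and *Ccn1*. It was also found in 26.1% of the promoters of the genes compared and in 54.5% of those of 33 immediate early genes. The other 3 motifs were not in these 5 windows, and sites farther from the start were not searched. The full CRE, the AP-1 site and the CArG box were in 2.53%, 3.18% and 1.22% of the promoters of the genes compared. In the 33 immediate early genes they were in 6.06%, 0.0% and 9.09%. Capitals mark the half-site, read along each gene's own strand: *Fos*, which held a pair of them, at chr12:85473812-85473841 and chr12:85473749-85473778 (plus strand), *Fosb* at chr7:19310088-19310117 (minus strand) and *Ccn1* at chr3:145650026-145650055 (minus strand).
Fos, nearer site: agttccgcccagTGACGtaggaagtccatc
Fos, farther site: ggggcgtagagtTGACGacagagcgcccgc
Fosb: tggagttgcgggTGACGcaagcgcgggggc
Ccn1: ccgacagagctaCGTCActgcaacacgcgg
The first bases of these half-sites lay 66 and 129 bases (*Fos*), 60 bases (*Fosb*) and 58 bases (*Ccn1*) before the start, with the one of *Ccn1* in reverse orientation.

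The pair of largest decreases were in genes that were higher on HFHS than on STD chow in both genotypes. *Lipf*, gastric lipase, read 5.31 on the HFHS (-/-) array and 7.53 on the (+/+) array, with 3.94 and 3.86 on the STD (-/-) and (+/+) arrays. *Slc5a7*, the high-affinity choline transporter of cholinergic nerve endings, read 6.19 and 8.03 on HFHS chow and 4.78 and 4.17 on STD chow. Both STD arrays were under the floor for each gene, and the HFHS (-/-) array lay between them and the (+/+) array. The companions of these genes did not follow: of 5 digestive lipase and gastric genes above the floor, only *Lipf* reached 1.5-fold, and the cholinergic genes *Chat* and *Slc18a3* were under the floor on all 4 arrays.

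The same order recurred in other large decreases, which had varied functions. *Sfrp5*, a secreted WNT antagonist known to increase in enlarging adipocytes of mice, read 8.56 and 9.52 on the HFHS (-/-) and (+/+) arrays and 6.65 and 5.50 on the STD arrays. *Cilp*, a matrix protein first described in cartilage, read 7.28 and 8.31 on HFHS chow and 6.78 and 5.97 on STD chow. In both genes, and in *Slc5a7*, the (-/-) array was lower on HFHS chow and higher on STD chow. *Oxtr*, the oxytocin receptor, read 6.09 and 7.34 on HFHS chow against 5.60 and 5.42 on STD chow. *Mtarc1*, a mitochondrial reductase, read 6.72 and 7.80 against 5.97 and 6.26, and *Rasd1*, a dexamethasone-induced Ras protein, read 7.64 and 8.81 against 6.50 and 7.03. *Prnd*, a prion-like protein, read 5.79 and 7.03 against 4.07 and 4.58, but its dimmer second cluster, under the floor, differed by 0.07.

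Among all 110 lower genes, the order of (+/+) above (-/-) above both STD arrays held in 52 (47.3%), and in 43 of the 113 matrix genes (38.1%), against 2569 of all genes compared (19.8%). The share among the 110 is a description only, since these genes were chosen by a (+/+) value above the (-/-) value. In a further 40 of the 110 the (+/+) array was above both STD arrays and the (-/-) array was not. *Ankrd23*, a muscle-type ankyrin repeat protein, read 5.99 and 7.09 on HFHS chow and 5.71 and 5.97 on STD chow, so that its HFHS (-/-) value lay only just above both STD values.

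**Figure D3:**
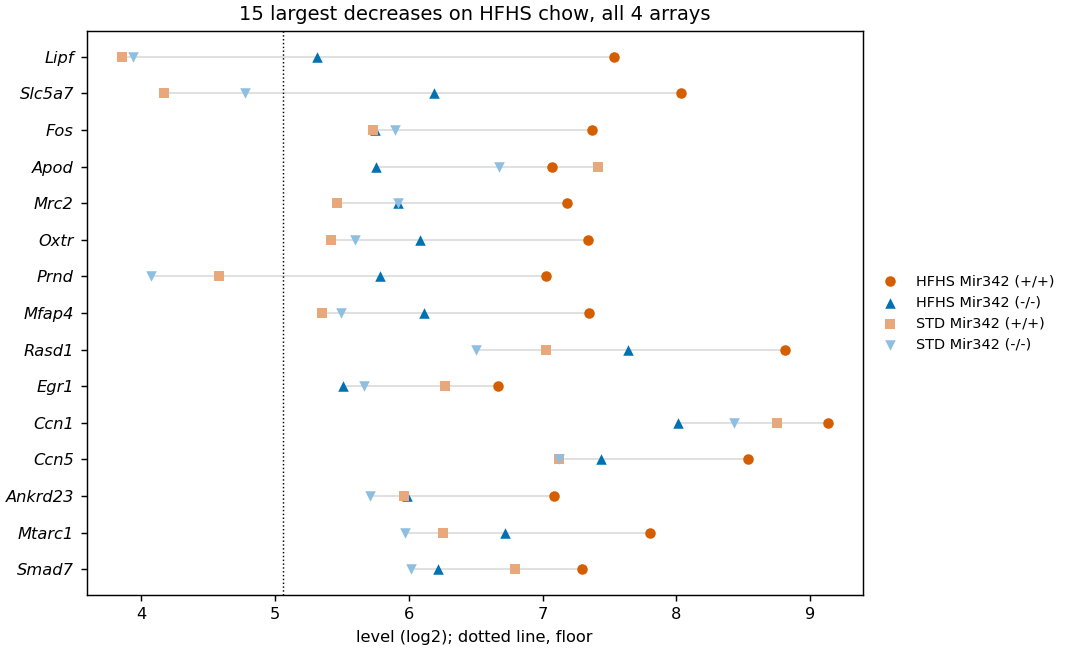
Log2 level (x axis) of the 15 named genes with the largest decrease on HFHS chow (y axis), with 1 symbol per array as in the key; the dotted line is the floor of 5.06. The HFHS (+/+) array is the highest of the 4 in 14 of the 15 genes, and *Apod* is the exception.

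Macrophage lists had negative medians as well, and none was tested against the matrix. Of all genes compared, 56.4% were lower on HFHS chow, with a median of -0.03, and brighter genes leaned lower. General macrophage markers had a median of -0.11 with 15 of 19 lower and none at 1.5-fold, and *Adgre1*, a surface receptor of mouse macrophages, read 7.81 and 7.86 on the HFHS (-/-) and (+/+) arrays and 6.89 and 6.91 on the STD arrays. This gene was separated by the diet more than by the genotype. Lipid-associated macrophage genes had a median of -0.17 with 21 of 23 lower, 1 of them by at least 1.5-fold, which was *Ctsk* of the protease list. Among other leukocyte genes the largest decreases were in *Cd209d*, a lectin of resident macrophages, at 5.86 and 6.85 on HFHS chow and 5.18 and 5.03 on STD chow, and *Ccl8*, a monocyte chemokine, at 5.59 and 6.56 against 5.08 and 5.34. Both set the HFHS (+/+) array above the other 3. Interferon response genes had a median of -0.25 with 13 of 17 lower and none at 1.5-fold, and *Oasl2*, an antiviral protein, read 6.83 and 7.34 against 6.74 and 6.55 on STD chow.

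Vessel genes were lower on both diets. Of 20 endothelial genes above the floor, 18 were lower on HFHS chow with a median of -0.13, and 19 were lower on STD chow with a median of -0.43. Of all genes compared, 56.4% were lower on HFHS chow, with medians of -0.03 on HFHS and -0.06 on STD chow. The median level of the endothelial list was 8.37, and 36.4% of all genes between levels 8 and 9 were higher on HFHS chow. *Mmrn1*, a lymphatic endothelial glycoprotein, read 7.12 and 8.07 on the HFHS (-/-) and (+/+) arrays and 6.84 and 8.55 on the STD arrays, so both (+/+) arrays were the higher. *Flt4*, the lymphatic VEGF receptor, read 6.62 and 7.06 on HFHS chow and 6.37 and 7.23 on STD chow. *Pecam1*, a pan-endothelial adhesion molecule, differed by -0.10 on HFHS chow. Smooth muscle and pericyte genes had medians of -0.19 and -0.40 on HFHS and STD chow, with 12 of 14 lower on HFHS chow.

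On the higher side, the largest values among named genes belonged to *Ighg3* and to the chemokine that draws B cells into follicles. Between them lay an unnamed locus, *Gm26504*, at 8.08 on the HFHS (-/-) array and 5.40, 4.90 and 4.61 on the HFHS (+/+), STD (-/-) and STD (+/+) arrays. *Ighg3*, the constant region of IgG3, read 8.65 on the HFHS (-/-) array, and 4.30, 4.88 and 4.47 on the HFHS (+/+), STD (-/-) and STD (+/+) arrays. The other 3 arrays were all under the floor, so the difference was at least 12.0-fold, but a second, dimmer cluster for *Ighg3*, under the floor, differed by -0.30. *Cxcl13*, the B cell chemokine, read 9.02 on the HFHS (-/-) array and 6.58 on the (+/+) array, with 7.09 and 7.39 on the STD arrays. *Jchain*, which joins IgM and IgA units, read 6.04 and 4.65 with 5.12 and 5.40 on STD chow, at least 1.97-fold higher. In each of these the HFHS (-/-) array stood alone above the other 3.

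Of 20 immunoglobulin genes and segments on the array, 16 were higher and 4 lower in *Mir342* (-/-) on HFHS chow, with a median of 0.29. The 12 with a mean under the floor comprised 8 higher and 4 lower, from -0.43 to 0.85. The other 8 were all higher and 7 of them at least 1.5-fold, but some, such as *Ighg3*, were above the floor only through a (-/-) array, so this count had to lean to the higher side. On STD chow 6 of these 8 were also higher, with a median of 0.75, and 3 of the 8 were highest of all on the STD (-/-) array. *Ighm*, the IgM constant region, read 10.20 and 9.49 on HFHS chow and 9.73 on both STD arrays. The light chain segment *Igkv15-103* read 7.36 and 5.75 on HFHS chow and 6.58 and 5.49 on STD chow, so that the (-/-) array was at least 2-fold higher on each diet. Such segments share sequence, so reads of one can come from another.

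Most markers of the cells that make antibody differed less than the antibody genes, with *Jchain* as an exception. Of 18 B cell and plasma cell genes on the array, 10 were above the floor, 7 of them higher, with a median of 0.06. Of the 10, 2 were at least 1.5-fold higher, *Jchain* among them, beside 0.447% of all genes. The summed level of the 18 was 10.13 on the HFHS (-/-) array and 9.98 on the (+/+) array. It was 10.28 and 10.89 on the STD (-/-) and (+/+) arrays. *Cd79a*, a subunit of the B cell receptor, read 5.92 and 5.56 on HFHS chow and 4.87 and 5.03 on STD chow. Of the plasma cell markers, *Sdc1* and *Mzb1* differed by -0.02 and 0.06, and *Jchain* by 1.39 as read. *Ms4a1*, which codes for CD20, read 5.13 and 4.75 on the HFHS (-/-) and (+/+) arrays, with a 4-array mean under the floor. The part of B cell number in the antibody difference was not tested. Of the lymphoid chemokine list, with 7 genes above the floor, only *Cxcl13* reached 1.5-fold, and *Cxcr5*, its receptor, differed by 0.07.

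*Snap25*, a SNARE protein of regulated exocytosis in neurons and endocrine cells and the predicted target of miR-342-3p that the study followed, was the third largest increase among named genes. It read 6.85 on the HFHS (-/-) array and 5.27, 4.91 and 5.11 on the HFHS (+/+), STD (-/-) and STD (+/+) arrays, 3.0-fold higher on HFHS chow. The HFHS (-/-) array stood 1.58 above the next, the other 3 were near the floor, and on STD chow the difference was -0.20. Of 19 SNARE genes above the floor, itself included, 12 were lower and 7 higher, the median was -0.07, and no other reached 1.5-fold. *Snap23*, the ubiquitous paralogue, read 8.13 and 8.35 on HFHS chow, and *Vamp2*, the vesicle partner, read 8.04 and 8.12.

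Several other genes best known from neurons were higher on the same array, of which *Tubb4a* and *Aldoc* were chosen after their values were seen. *Syt1*, the calcium sensor of synaptic vesicles, read 5.63 and 4.93 on the HFHS (-/-) and (+/+) arrays and 5.14 and 4.70 on the STD arrays, at least 1.48-fold higher on HFHS chow with the floor in place of its (+/+) value. *Tubb4a*, a neuronal tubulin, read 6.75 and 6.01 on HFHS chow and 5.96 and 6.02 on STD chow, and *Aldoc*, a brain aldolase, read 6.19 and 5.44 against 5.48 and 5.35. For the last 2 the HFHS (-/-) array stood above the other 3. The list of neurons and nerve fibres as a whole had 10 genes above the floor, 6 higher and 4 lower, with a median of 0.17 on HFHS chow and 0.16 on STD chow. *Stmn2*, an axonal marker, read 6.80 and 6.54 with 7.03 and 6.89 on STD chow. The summed level of the 18 list genes on the array was 9.83 on the HFHS (-/-) array and 9.88 on the (+/+) array, where *Slc5a7* alone was 3.59-fold higher than on the (-/-) array, and the part of nerve tissue was not tested.

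Some plasma and acute phase proteins were also higher, and others were lower. *Alb*, albumin, read 7.38 and 6.06 on the HFHS (-/-) and (+/+) arrays and 6.09 and 5.82 on the STD arrays. *Orm3*, an orosomucoid acute phase protein, read 7.84 and 6.81 on HFHS chow and 5.81 and 5.11 on STD chow, and *Saa3*, the extrahepatic serum amyloid A of mice, read 6.23 and 5.51 against 5.48 and 4.91. The (-/-) array was the higher on each diet for all of these, and on HFHS chow it stood above the other 3. The list did not differ as 1 group: of 9 genes above the floor 6 were higher with a median of 0.08, *Orm1* differed by -0.41 and *Apoa1*, a liver marker, by 0.29, and *Ttr* had a mean under the floor. The summed level of the list was 12.59 on the HFHS (-/-) array and 12.79 on the (+/+) array, and 12.69 and 12.33 on the STD arrays. Outside the list, and chosen after their values were seen, the liver-type plasma proteins *Igfals* and *Lbp* differed by -1.02 and -0.67, and the acute phase gene *Lrg1* by -0.67.

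A different kind of increase came from genes that were lowest on the HFHS (+/+) array. *Fam13a*, a gene at a body fat distribution locus in humans, read 10.21 on the HFHS (-/-) array, 9.19 on the (+/+) array and 10.60 and 10.69 on the STD (-/-) and (+/+) arrays. *Ces1f*, a carboxylesterase that hydrolyses lipid, read 7.85 and 6.91 against 8.26 and 8.29, and its relative *Ces1d*, a triglyceride hydrolase, read 8.11 and 7.59 against 8.43 and 8.26. In these 3 genes the HFHS (+/+) array was the low one and the HFHS (-/-) array was nearer to the STD arrays. *Irf4*, a lymphocyte factor that fasting also induces in adipocytes, read 6.73 and 5.84 on HFHS chow and 8.01 and 9.65 on STD chow. *Slc43a1*, an amino acid transporter, read 7.38 and 6.69 against 8.54 and 8.66. These last genes were low on both HFHS arrays, and lowest on the (+/+) array. Of the 58 higher genes, the (+/+) array was the lowest of the 4 in 44, against 2636 of all genes (20.3%), which is a description only, since these genes were chosen by a (+/+) value below the (-/-) value.

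The remaining large increases were dimmer. *Cyp4a12b*, a fatty acid hydroxylase, read 6.66 and 5.89 on HFHS chow and 6.81 and 6.20 on STD chow, higher in *Mir342* (-/-) on both. *H2ac1*, a histone, was at least 1.62-fold higher with the floor in place of its (+/+) value, *Nat8f1*, an acetyltransferase family member, at least 1.46-fold, and *Rasgrf1*, a Ras exchange factor, at least 1.20-fold. In 17 of the 58 higher genes 1 HFHS array was under the floor, 31 had a mean level under 6, and 20 were receptors, antigen receptor segments, small RNAs or unnamed loci. The lower genes held 7, 35 and 8 such cases of 110.

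**Figure D4:**
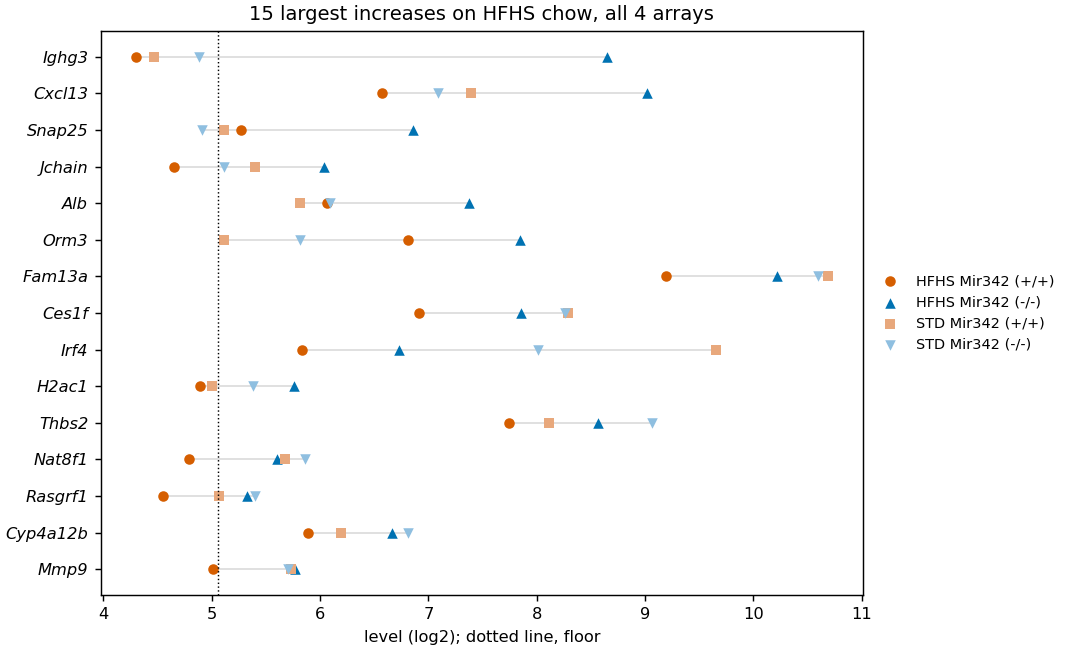
Log2 level (x axis) of the 15 named genes with the largest increase on HFHS chow (y axis), with 1 symbol per array as in the key; the dotted line is the floor of 5.06. For *Ighg3*, *Cxcl13*, *Snap25*, *Jchain*, *Alb* and *Orm3* the HFHS (-/-) array lies alone on the high side. The HFHS (+/+) array is the lowest of the 4 in all 15 genes but *Snap25*, *Alb* and *Orm3*. It lies at least 1.5-fold below the other 3 for *Fam13a*, *Ces1f*, *Irf4*, *Nat8f1* and *Mmp9*.

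Genes of adipocyte identity and metabolism held near the background. Of 23 adipocyte genes, 10 were lower and 13 higher, the median was 0.04, and *Sfrp5* was the 1 member past 1.5-fold. *Lep*, leptin, which follows fat mass, read 11.18 and 11.48 on the HFHS (-/-) and (+/+) arrays and 10.82 and 9.28 on the STD arrays, so 3 arrays were high and the STD (+/+) array was low. *Pparg*, the master regulator of adipocytes, read 9.95 and 9.89. *Lpl*, which releases fatty acids from lipoproteins, read 11.97 and 12.07.

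Lipid synthesis and respiration were equally flat. None of 23 lipogenic genes reached 1.5-fold on HFHS chow, with a median of -0.04, and the largest differences were -0.58 for *Elovl6*, a fatty acid elongase, and 0.47 for *Thrsp*, a lipogenic nuclear protein. *Fasn*, fatty acid synthase, read 10.64 and 10.87 on HFHS chow and 9.51 and 8.24 on STD chow, so the diet separated it more than the genotype. Of 36 respiratory chain genes 21 were higher, all differences lay between -0.30 and 0.30, and the median was 0.05. Of 6 thermogenic genes above the floor the largest difference was -0.40, in *Cox7a1*, a respiratory subunit of brown fat and muscle. *Cidea*, a droplet protein of brown fat, read 5.33 and 5.24, and *Ucp1*, the uncoupling protein, was under the floor on all 4 arrays. The cytokines *Il6*, *Il1b*, *Tnf* and *Ifng* were under it as well.

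**Figure D5:**
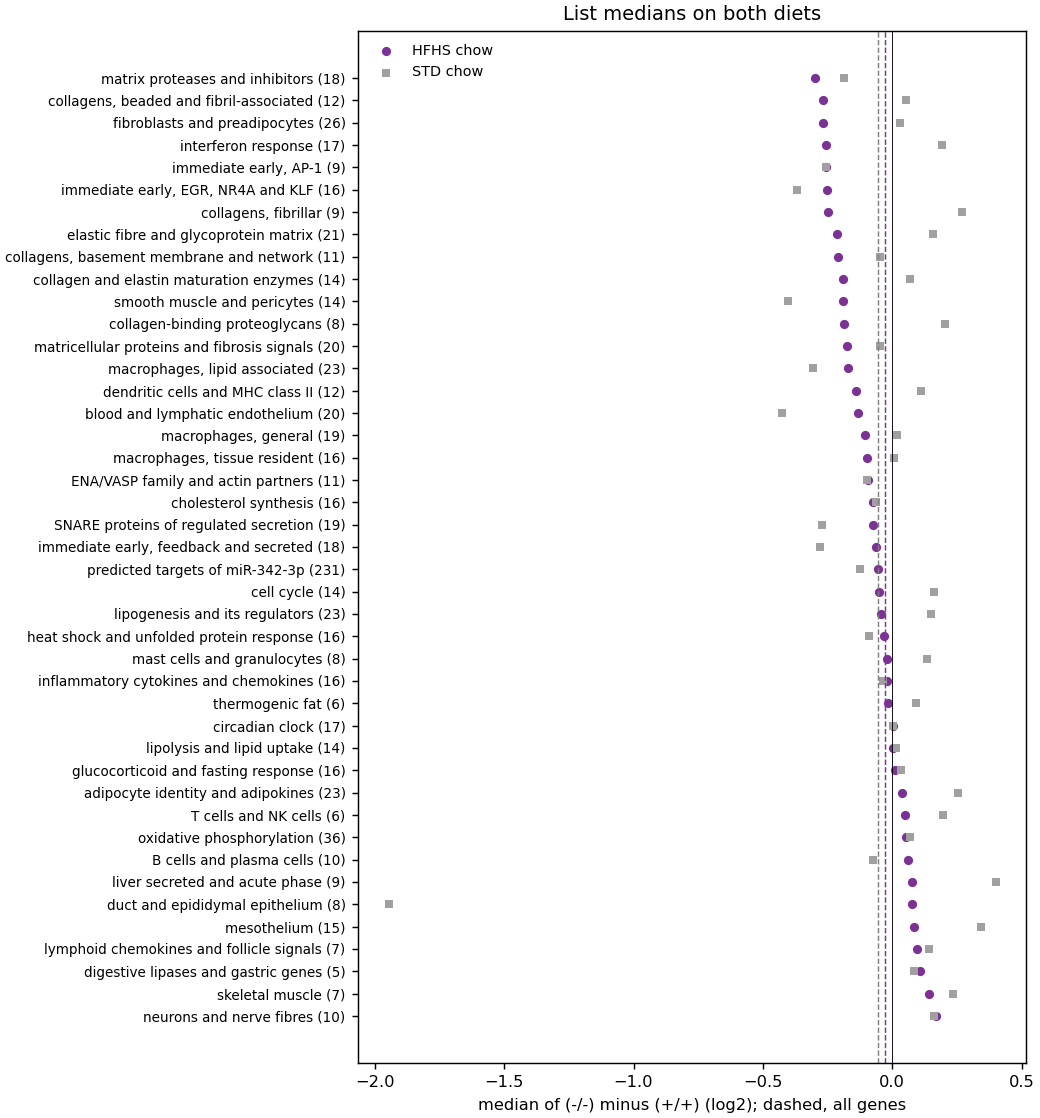
Median of *Mir342* (-/-) minus *Mir342* (+/+) in log2 (x axis) for each gene list with at least 5 genes above the floor (y axis, number of genes in brackets), on HFHS chow (circles) and STD chow (squares); dashed lines are the medians of all 12963 genes, -0.03 and -0.06. Matrix, fibroblast, interferon and the AP-1 and EGR immediate early lists lie at the negative end on HFHS chow, and metabolic lists lie within 0.1 of 0.

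Predicted targets of miR-342-3p were examined as the list from which the study took *Snap25*, so *Snap25* is no independent member of it. Of 279 on the array, 231 were above the floor, of which 147 were lower (63.6%, beside 56.4% of all genes) and 83 higher, and the median was -0.06 beside -0.03 for all genes. The median level of these targets was 6.93. Of all genes, 41.2% were higher between levels 6 and 7 and 34.4% between 7 and 8. Only *Snap25* reached 1.5-fold higher, 0.433% of the 231 beside 0.447% of all genes, and none reached 1.5-fold lower. Next on the higher side was *Eef1a2*, a translation elongation factor of muscle and neurons, which read 5.74 and 5.17 on HFHS chow and 5.63 and 5.10 on STD chow. *Pygb*, brain glycogen phosphorylase, read 8.99 and 8.54 on HFHS chow and 8.44 and 7.94 on STD chow, and *Gsta4*, a glutathione transferase, read 7.65 and 7.22 against 7.39 and 6.95. In these 3 genes the (-/-) array was the higher on each diet, by 0.43 to 0.57 on HFHS chow and 0.44 to 0.53 on STD chow. At the other end were *Cd180*, a receptor of B cells and macrophages, at 6.48 and 7.0 on HFHS chow, and *Col1a2*, a collagen I chain, at 9.09 and 9.59.

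Across the diets, the direction of the genes called on HFHS chow was set beside their direction on STD chow. Of the 110 lower genes, 63 were also lower on STD chow, 16 by at least 1.5-fold, while 6 were at least 1.5-fold higher there. Of the 58 higher genes, 39 were also higher on STD chow, 15 by at least 1.5-fold, while 3 were at least 1.5-fold lower there. Of all genes compared, 3.95% were at least 1.5-fold lower and 1.79% at least 1.5-fold higher on STD chow. Their median STD difference was -0.06, so more of all genes were lower than higher there. The 63 of 110 are therefore a description only. With 1 array per group, the difference between the diets in these values was not tested. *Rplp0*, the ribosomal control gene of the study's RT-qPCR, read 6.72 and 6.91 on HFHS chow and 6.95 and 6.97 on STD chow. Its difference was -0.20 on HFHS chow, whereas its other cluster differed by 0.24. The disagreement between clusters of 1 gene varied. The HFHS differences were 4.35 and -0.30 for *Ighg3*, -1.24 and 0.07 for *Prnd*, and -0.09 and -0.07 for *Lpl*.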

How the data were processed

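Total RNA of epididymal fat was hybridised to 4 GeneChip Mouse Gene 2.0 arrays, 1 per group. The deposited values are log2 levels per transcript cluster, made by the authors' service provider. The summarization and normalization methods, not given in the sources used here, are unknown. No rescaling was applied, since their medians over 41345 clusters lie between 5.06 and 5.14. Array values carry no read depth, and the number of arrays, 1 per group, limits the precision. Arrays were assigned to groups by genotype and diet in their labels, and 0 columns were left out.

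Annotation supplied for the array gave 1 symbol to 23521 clusters, several to 1820 and none to 16004. The first were used, and 1082 genes with several clusters were read from the one with the highest mean. The floor was 5.06. Counts use 1.5-fold and 2-fold thresholds, and no test was made. Where 1 HFHS array was under the floor, the fold is a bound with the floor in its place.

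Named genes are the 15 largest increases and decreases (without receptors, antigen receptor segments, small RNAs, pseudogenes and unnamed loci), up to 8 members of each list (all in lists of up to 14), *Mir342*, *Evl*, *Snap25*, *Lep*, the RT-qPCR genes, 10 predicted targets at each end, and genes 2-fold apart alike on both diets. Others were chosen after their values were seen. The members and the 44 lists were chosen with earlier results of these data known. The alternatives were quantile normalization, median centring, 3 other floors, the mean of a gene's clusters and a 2-fold gap for standing apart. A setting with values under the floor placed at the floor was added after the data were seen. The steps were tested on simulated data. The scripts ran in Python 3.11.15 with pandas 2.3.3, and figures were drawn with matplotlib 3.10.9 and arrays handled with numpy 2.4.6.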

Additional observations from a re-analysis of the deposited data

Results flagged for a closer look

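There were 9 genes that differed by at least 1.5-fold in opposite directions on the 2 diets, and these opposite signs were not tested. Lower in *Mir342* (-/-) on HFHS chow and higher on STD chow were *Slc5a7* (-1.84 and 0.61), *1700047G03Rik* (-1.19 and 0.96), *Cilp* (-1.03 and 0.80), *Sfrp5* (-0.95 and 1.15), *Duoxa1* (-0.69 and 0.64) and *Gstm4* (-0.60 and 0.61). In these 6 genes the HFHS (+/+) array was the highest of the 4 and the STD (+/+) array the lowest. Higher on HFHS chow and lower on STD chow were *Irf4* (0.89 and -1.64), *Atp1b1* (0.71 and -1.19) and *Rgs2* (0.65 and -0.65), and there the HFHS (+/+) array was the lowest and the STD (+/+) array the highest.

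Of 43 lists with at least 5 genes above the floor, 16 had medians of opposite sign on the diets, and this was not tested either. In 3 of them the median was at least 0.2 from 0 on HFHS chow and at least 0.1 on STD chow, namely fibrillar collagens (-0.25 on HFHS and 0.27 on STD chow), elastic fibre and glycoprotein matrix (-0.22 and 0.16) and the interferon response (-0.25 and 0.19).

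Clusters without a single gene symbol were used in no comparison. Of 17824, 7374 were above the floor, and 1.59% of these differed by 2-fold or more between the HFHS arrays, 68 with the higher value in *Mir342* (-/-) and 49 with the lower. Of the 12963 genes compared, 11 were at least 2-fold higher (0.0849%) and 19 lower (0.147%). The unused clusters thus held a larger share of 2-fold differences, and these leaned the other way.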

How the results depend on the processing

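With 1 array per group and no replicate numbers, the values carry no error. No paired analysis was possible because each group holds 1 array. Of the summary values recomputed under the alternatives, 348 stayed within their tolerance of the value reported and 27 moved outside it, and of the single-gene differences 135 stayed, 2 moved and 1 reversed. The tolerance was 0.1 for medians and single genes, and a factor of 1.5 for counts. The causes of the changes were not tested.

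The floor had the most effect. Without a floor, with 22180 genes, 199 genes were at least 1.5-fold higher and 169 lower, so that higher genes made up 54.1% of those counted instead of 34.5%, and 25 were at least 2-fold higher. The HFHS (+/+) array then stood below the other 3 for 28 genes and the (-/-) array above them for 34, and the duct epithelium median was 0.21. With the floor raised by 1, leaving 8508 genes, 26 were at least 1.5-fold higher and 73 lower, 6 were at least 2-fold higher, and the (-/-) array stood above for 6 and below for 5. The medians there were -0.38 for fibrillar collagens, -0.49 for beaded and fibril-associated collagens, 0.71 for immunoglobulin constant regions, -0.49 for T and NK cells, -0.12 for EGR, NR4A and KLF genes, 0.080 for cholesterol synthesis, 0.10 for thermogenic fat, -0.32 for duct epithelium and -0.18 for liver secreted proteins.

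With the mean of a gene's clusters, the median was 0.59 for immunoglobulin constant regions and 0.094 for thermogenic fat, the difference was 2.02 for *Ighg3* and -0.58 for *Prnd*, and *Rplp0* reversed to 0.021. With a gap of 2-fold, the (+/+) array stood above for 15 genes and below for 1, and the (-/-) array above for 6 and below for 0. With values under the floor placed at the floor, chosen after seeing the data, the immunoglobulin constant median was 2.15. Quantile normalization gave 57 higher and 101 lower genes at 1.5-fold, of which 55 and 97 were among those reported. Median centring gave 52 and 139.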
